A study of Xenopus laevis with 45 samples.

Results

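The matrix metalloproteases (MMPs), their tissue inhibitors (TIMPs), the ADAMTS metalloproteases and the ADAMTS-like proteins of Xenopus laevis were described in whole embryos in which erythroferrone (ERFE, listed under its other name fam132b) had been targeted with antisense morpholinos. Every gene whose symbol begins with mmp, timp, adamts or adamtsl followed directly by a digit was taken, which gave 79 of the 45038 genes in the count tables. They carry 46 symbols, 33 of them with both an .L and an .S copy, the homeologs that this allotetraploid frog retains from its parental genomes. Total RNA of uninjected embryos and of 4 injected groups was sequenced at stages 35/36, 37/38 and 41, with 3 libraries for each of the 15 combinations, 45 in all. The injected embryos received 10 ng ERFE-MO1, 20 ng ERFE-MO2, or 10 ng or 20 ng of a standard control morpholino (cMO), each delivered to the 4 vegetal cells of the 8-cell embryo, and all embryos were raised in 0.1x MBS buffer. No genotype or strain is given for any group, and the labels name neither the step that each ERFE morpholino blocks nor whether replicates came from separate clutches. The p-values therefore measure the spread between these libraries only, which may be technical.

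MMPs and ADAMTS enzymes are zinc-dependent proteases that cut collagens, proteoglycans, fibronectin and other matrix components, and also release growth factors and cell-surface proteins. MMPs are made as inactive precursors, are activated by other proteases such as plasmin, furin or membrane-type MMPs, and are blocked by TIMPs, which bind their active site. In the tadpole these enzymes accompany cell migration, vessel and gut morphogenesis, skeletal growth and, later, the tissue resorption of metamorphosis, in which the collagenase of the tail and stromelysin-3 are long known to be induced.

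Each library held between 19342567 and 41922031 counts assigned to genes (median 32828061), and the members together accounted for 997 to 2285 CPM, the usual depth-corrected unit of counts, here on library sizes scaled by the trimmed mean of M values. A count of 3, the limit that a reading of 0 allows, corresponded to between 0.0709 and 0.155 CPM depending on the library, counting error only. Of the members, 77 passed the filter on low counts, as did 31817 genes in all; mmp20.L (22 counts over all libraries) and timp3.L (0 counts) did not. The targeted gene, fam132b.L, was not called in any comparison of ERFE morpholino with control: its log2 fold change at stage 41 was -0.54 ± 0.39 (SE) with ERFE-MO1 and -0.86 ± 0.40 with ERFE-MO2 (edgeR, adjusted p = 0.65 and 0.53). A morpholino that blocks translation need not change the RNA, so this gene does not check the labels. The library labelled ERFE-MO2, stage 35/36, replicate 1 agreed almost within sampling noise with the library labelled ERFE-MO1, stage 37/38, replicate 2: the chi-square per gene, taken over 31834 genes, was 1.22. Among the 990 pairs of libraries the next lowest value was 3.78, and within groups the lowest was 10.2. The main results that rest on either library are given with and without it below. A stage score, meaning the slope of a library's log2 levels on the uninjected change between stages 35/36 and 41 over 5035 genes that are no members, was used to place the libraries in development. At stage 41 it averaged 0.83 in uninjected embryos, 0.75 in each cMO group, 0.68 with ERFE-MO1 and 0.64 with ERFE-MO2. The SD within these groups was 0.12 to 0.18, and their libraries overlapped. The means of the knockdown groups thus lay lowest at that stage. The reference change came from the uninjected libraries themselves, so their own score is not independent of it. The part of the stage score in the stage 41 results below was not tested. Of the matching pair, the library labelled ERFE-MO2 stage 35/36 scored 0.220, against 0.023 and -0.010 in replicates 2 and 3 of its group. The library labelled ERFE-MO1 stage 37/38 scored 0.221, against 0.162 and 0.152 in replicates 1 and 3 of its group. Which label is right was not tested.

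Both copies of adamts1, which encodes a secreted protease that cleaves the proteoglycans aggrecan and versican and is known in mammals for its inhibition of angiogenesis, were higher in every ERFE-MO1 library than in any cMO library of the same stage. At stage 35/36, adamts1.L read 24.9, 25.6 and 20.7 CPM in 10 ng cMO embryos and 55.0, 33.5 and 31.9 CPM in ERFE-MO1 embryos. At stage 37/38 the corresponding values were 24.8, 23.3 and 23.4 CPM and 50.1, 32.5 and 41.0 CPM. At stage 41 they were 32.9, 44.4 and 39.9 CPM and 76.8, 61.6 and 65.3 CPM. The groups did not overlap at any of the 3 stages, and ERFE-MO1 values also lay above those of the uninjected embryos, whose highest reading at stage 41 was 45.2 CPM. The S copy was likewise apart: adamts1.S stood at 29.2, 43.9 and 42.3 CPM in stage 41 cMO embryos and at 69.3, 63.5 and 69.1 CPM with ERFE-MO1.

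In the fit over all genes, adamts1.L rose by 0.76 ± 0.18 on the log2 scale at stage 35/36, by 0.79 ± 0.18 at stage 37/38 and by 0.80 ± 0.18 at stage 41 (edgeR quasi-likelihood test with Benjamini-Hochberg adjustment, adjusted p = 0.041, 0.023 and 0.012). The corresponding values of adamts1.S were 0.61 ± 0.16, 0.82 ± 0.16 and 0.81 ± 0.16 (adjusted p = 0.093, 0.0062 and 0.0046), so that this copy was called at the later stages. At stage 35/36 it was called without the ERFE-MO2 library that matches another label (0.62, adjusted p = 0.036). These were the only members called at the earlier stages: 1 of 77 at stage 35/36, where 0.39% of all genes tested were called, and 2 of 77 at stage 37/38, where the share was 0.6%. The call of adamts1.L at stage 35/36 was lost without ERFE-MO1 replicate 1 (0.47, adjusted p = 0.73) and without any 1 of the cMO replicates (0.67 to 0.84, adjusted p 0.10 to 0.30). At stage 37/38 it was lost without ERFE-MO1 replicate 1 (0.63, adjusted p = 0.25), ERFE-MO1 replicate 3 or any 1 cMO replicate (0.77 to 0.82, adjusted p 0.066 to 0.13). The stage 41 call was lost without ERFE-MO1 replicate 1 or cMO replicate 1 or 3 (0.67 to 0.81, adjusted p 0.065 to 0.079). The call of adamts1.S at stage 37/38 was lost without ERFE-MO1 replicate 1 (0.66, adjusted p = 0.11) or cMO replicate 2 (0.79, adjusted p = 0.057). Leaving out the stage 37/38 library that matches another label kept both calls, with adamts1.L at 0.93 and adamts1.S at 0.95 (adjusted p = 0.0071 and 0.0014). Against uninjected embryos adamts1.L at stage 37/38 missed the threshold (0.65, adjusted p = 0.074).

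With ERFE-MO2 neither copy was called. At stage 35/36 adamts1.L read 32.5, 22.7 and 22 CPM against 23.4, 27.9 and 21.9 CPM in 20 ng cMO embryos, and at stage 37/38 29.3, 21.1 and 25.5 CPM against 27.8, 20.2 and 26.5 CPM. At stage 41 it read 42.9, 53.4 and 44.6 CPM against 33.5, 37.3 and 43.4 CPM. Only at stage 41 were the ERFE-MO2 values mostly above the controls, and there the groups overlapped (log2 difference 0.30 ± 0.18, adjusted p = 0.70). For adamts1.S at that stage they did not overlap (41.1, 48.2 and 42.8 CPM against 29.7, 34.8 and 40.3 CPM), yet the difference of 0.33 ± 0.16 was not called (adjusted p = 0.55). The difference between the ERFE-MO1 and ERFE-MO2 responses, each set against its own dose of cMO, was 0.76 for adamts1.L at stage 37/38 with a 95% interval of 0.25 to 1.27 and an adjusted p of 0.80. For stage 41 the difference was 0.50 with an interval of -0.01 to 1.0. The morpholinos were given at different doses, so their values stand side by side here without a ranking.

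**Figure D1:**
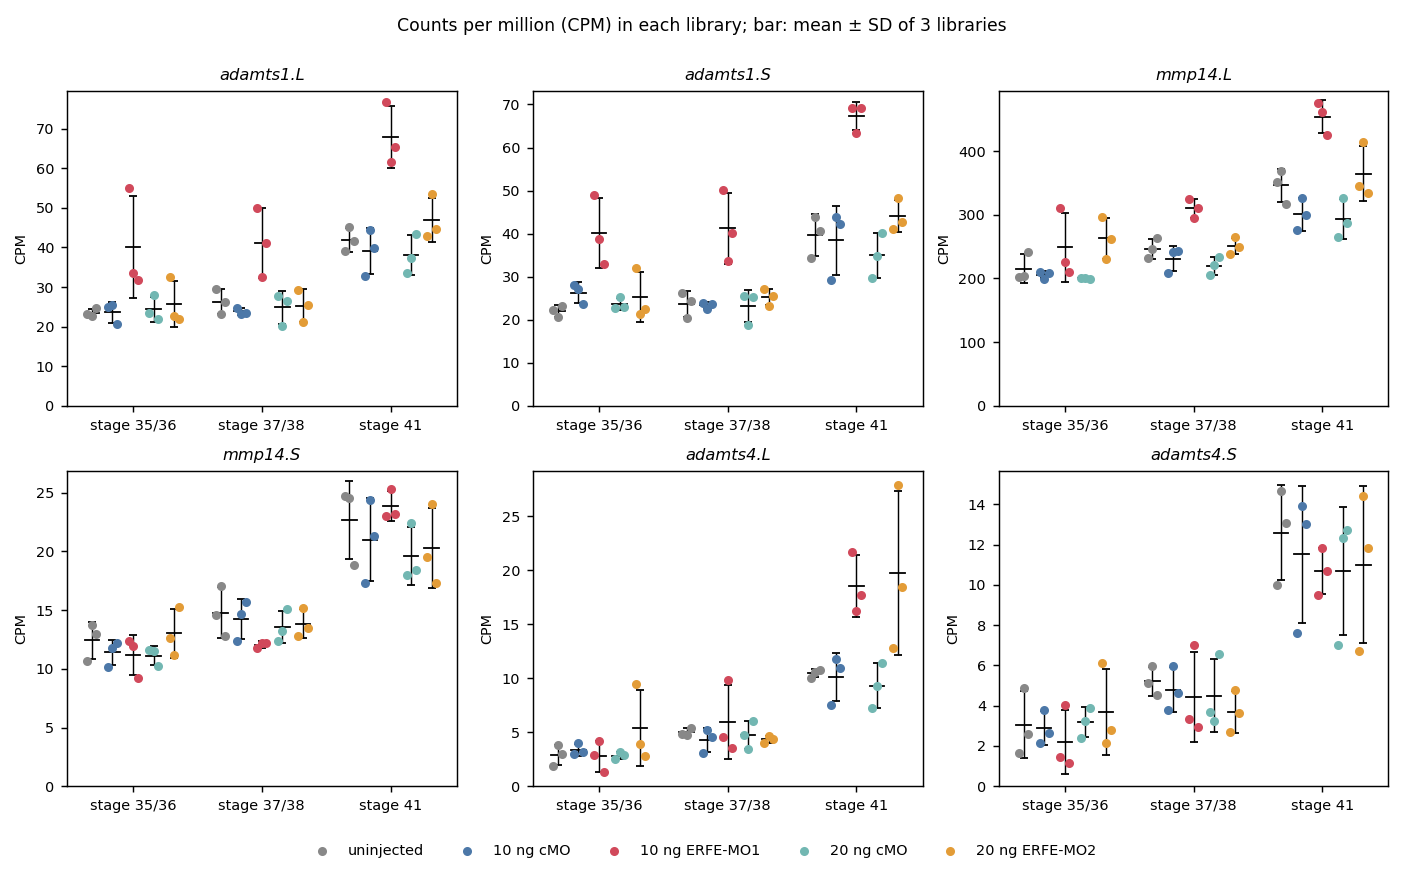
CPM of 6 members in each of the 45 libraries, by stage on the horizontal axis and coloured by condition, with the mean and SD of the 3 libraries of each group as black bars. The ERFE-MO1 libraries of adamts1.L and adamts1.S lie above the cMO libraries at all 3 stages, those of mmp14.L most clearly at stage 41 (425 to 476 CPM against 276 to 326 CPM), while mmp14.S and adamts4.S overlap their controls at stage 41.

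The membrane-type protease gene mmp14.L, whose product activates the gelatinase MMP2 at the cell surface with the help of TIMP2 and cleaves fibrillar collagen, was the third member called with ERFE-MO1 at stage 41. It read 276, 326 and 300 CPM in 10 ng cMO embryos and 476, 461 and 425 CPM in ERFE-MO1 embryos, with no overlap (log2 difference 0.60 ± 0.11, adjusted p = 0.0029). Uninjected embryos of that stage, at 352, 369 and 318 CPM, lay below the ERFE-MO1 values and overlapped those of cMO. Against them the difference was 0.39 with an adjusted p of 0.058. Together with the adamts1 copies this made 3 of 77 members called at stage 41, beside 1.51% of all genes tested.

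At the earlier stages mmp14.L pointed the same way, at stage 35/36 mainly through ERFE-MO1 replicate 1 and without a call. In ERFE-MO1 embryos it read 310, 226 and 210 CPM at stage 35/36, against 210, 200 and 208 CPM in cMO embryos, and 324, 296 and 310 CPM at stage 37/38, against 208, 242 and 243 CPM. The stage 37/38 groups were apart, but the difference of 0.43 ± 0.11 missed the threshold (adjusted p = 0.073); it passed without the ERFE-MO2 library of stage 35/36 that matches another label (0.43, adjusted p = 0.036). With ERFE-MO2 at stage 41 it read 346, 414 and 334 CPM against 265, 327 and 287 CPM in the matching cMO embryos. These groups were again without overlap and without a call (0.31 ± 0.11, adjusted p = 0.27). The ERFE-MO2 values did overlap those of the uninjected embryos of that stage, given above. The means were 364 CPM with ERFE-MO2, 346 CPM in uninjected embryos and 293 CPM in the matching cMO embryos. The homeolog mmp14.S was not called: at stage 41 it read 17.3, 24.4 and 21.3 CPM in cMO embryos and 23.0, 25.3 and 23.2 CPM with ERFE-MO1, and these ranges overlapped.

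No member was called with ERFE-MO2 at any stage, where 0.0189%, 0.0974% and 0.412% of all genes were called at stages 35/36, 37/38 and 41. By stage, 8, 3 and 10 members (10.4%, 3.9% and 13%) had an unadjusted p under 0.05, beside 5.35%, 5.2% and 8.69% of all genes. DESeq2 called 1, 0 and 1 members, and its share over all genes is not given here. Leaving out the stage 35/36 library that matches another label left the count at 0, and leaving out its match among the ERFE-MO1 libraries of stage 37/38 left the count of that comparison at 2. No member was called for a difference between the morpholino responses at any stage or between stages 41 and 35/36 within a morpholino. In each of these 5 tests 2 to 4 members (2.6% to 5.19%) had an unadjusted p under 0.05. The share of all genes was 2.34% to 3.45%, and DESeq2 called no member. Over all genes these tests called 0%, 0.0409% and 0% between the morpholinos, and 0.00629% and 0% between the stages.

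Libraries with the same replicate number deviated together in nearly all groups, although the labels do not say what the number stands for, so the counts were also taken with that number as a block within each stage. With ERFE-MO1 the block gave 4, 7 and 13 members called at stages 35/36, 37/38 and 41, where it called 2.5%, 3.64% and 13.4% of all genes. The additions at stage 35/36 were adamts1.S (0.60, adjusted p = 0.0026), mmp19.L (0.83, adjusted p = 0.034) and, lower, mmp15.S (-0.25, adjusted p = 0.015). At stage 37/38 they were mmp14.L (0.43, adjusted p = 0.0054), mmp19.L, mmp1.L, mmp13l.L and, lower, mmp28.L (-0.28, adjusted p = 0.036). Without ERFE-MO1 replicate 2, which matches another label, the block called 3 members at stage 37/38, adamts1.L, adamts1.S and mmp14.L (0.48, adjusted p = 0.0071). The others were then not called: mmp19.L was at 0.66, mmp1.L at 1.63, mmp13l.L at 4.34 and mmp28.L at -0.17 (adjusted p = 0.15, 0.48, 0.57 and 0.30). With ERFE-MO2 the block called 0 members at stage 37/38 and 8 at stage 41 (5.8% of all genes), among them mmp14.L (0.31, adjusted p = 0.036), adamts4.L (1.06, adjusted p = 0.041) and, lower, adamts20.L (-0.63, adjusted p = 0.033).

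mmp19.L encodes a secreted MMP with a broad range of basement membrane substrates. With ERFE-MO1 it was called under the block at all 3 stages, and in the fit without the block at none. At stage 41 it read 7.25, 12.5 and 13.2 CPM in replicates 1, 2 and 3 of the cMO embryos and 19.1, 20.0 and 17.9 CPM with ERFE-MO1. The groups were apart at this stage and likewise at stage 35/36 (4.71, 4.08 and 4.36 CPM against 11.6, 6.27 and 6.26 CPM) and stage 37/38 (5.61, 6.51 and 5.47 CPM against 9.67, 13 and 8.57 CPM). Yet without the block the stage 41 difference of 0.79 ± 0.26 was not called (adjusted p = 0.14). With the block it was 0.84 (adjusted p = 0.0046). The replicates did not move together here: replicate 1 was lowest in cMO embryos and replicate 3 with ERFE-MO1. With ERFE-MO2 mmp19.L overlapped its controls at all 3 stages.

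**Figure D2:**
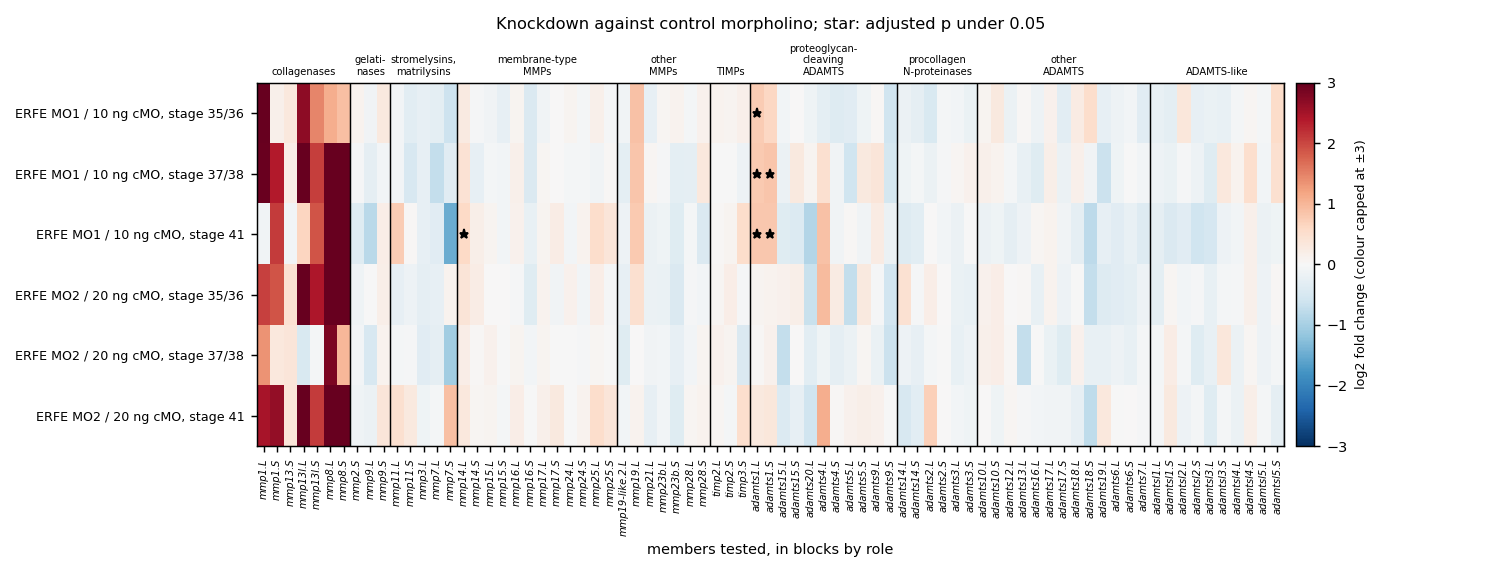
Log2 fold change of each of the 77 members tested (columns, in blocks by role) in the 6 comparisons of an ERFE morpholino with the same dose of cMO (rows), from blue for lower to red for higher and capped at 3 in either direction. Stars mark the 6 calls, which fall on adamts1.L, adamts1.S and mmp14.L. The collagenase block holds the largest fitted changes, in which single libraries stand far above the rest of their group.

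The collagenases open the fibrillar collagen helix. Of the 7 copies tested, 5 had their 4 highest values in the same 4 libraries of ERFE morpholino embryos, labelled as 4 different groups. Of these libraries 2 are the pair that match each other, so the 4 may not be separate samples. The 5 copies include both homeologs of mmp8 and of mmp13l, which can share reads. The 4 libraries were picked out from these same values. The share of all genes with their highest values there was not taken. RefSeq places the genes next to each other, on chromosome 2L in the order mmp3, mmp7, mmp20, mmp8, mmp1 and mmp13l with unnamed loci between mmp8 and mmp1, and on 2S as mmp13, mmp8, mmp1 and mmp13l with unnamed loci among them. RefSeq lists mmp18 and col4 as synonyms of mmp1.S, mmp1 as a synonym of mmp8.L and xCol as a synonym of mmp13l.S, so the names do not match the mammalian genes singly.

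In the 27 uninjected and cMO libraries, mmp8.L lay between 0.155 and 6.42 CPM with a median of 0.750 CPM. It read 248 CPM in ERFE-MO1 stage 37/38 replicate 2, 70.0 CPM in ERFE-MO1 stage 41 replicate 1, 248 CPM in ERFE-MO2 stage 35/36 replicate 1 and 275 CPM in ERFE-MO2 stage 41 replicate 2. The other 14 ERFE libraries lay between 0.286 and 13 CPM, so 4 libraries stood apart, and the first and the third of these are the pair that match each other. In the same order of libraries, mmp8.S read 74.4, 41.2, 77.3 and 117 CPM, against at most 4.32 CPM in the controls. mmp1.S read 198, 193 and 296 CPM in the first, the third and the fourth, against at most 32.6 CPM in the controls, and the second came next. mmp13l.L read 8.93, 1.09, 8.67 and 22.9 CPM, against at most 0.562 CPM. The same libraries were thus the highest for each of these genes, and for mmp13l.S (1.89, 2.68, 2.37 and 3.34 CPM, controls up to 0.689 CPM). Of the 18 ERFE libraries, 7 exceeded every control for mmp8.L, 8 for mmp8.S, 6 for mmp1.S, 4 for mmp13l.L and 5 for mmp13l.S. These counts were not set beside the same counts over all genes.

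The other genes of the neighbourhood stayed near their control ranges or peaked elsewhere. mmp7.L (matrilysin) lay between 49.6 and 201 CPM in the 18 ERFE libraries and between 49.9 and 212 CPM in the controls, and mmp3.L (stromelysin-1) between 11.9 and 64.1 CPM and between 9.41 and 71.5 CPM. mmp1.L peaked elsewhere, at 31.2 CPM in ERFE-MO1 stage 35/36 replicate 1, with 16.4, 8.66, 16.3 and 18.9 CPM in the 4 libraries above and at most 7.23 CPM in the controls. Among transcription factors, junb.L, a subunit of the AP-1 dimers that are known to bind collagenase promoters in mammals, read 54.1, 101, 56.5 and 147 CPM in those 4 libraries, against 9.31 to 30.6 CPM in the controls. It also exceeded the controls in 4 other ERFE libraries of stage 41. A list of 22 myeloid marker genes was chosen because neutrophils and macrophages carry MMP8 and MMP9 in mammals. Their summed level was 445, 246, 449 and 509 CPM in the 4 libraries, within the 203 to 585 CPM of the controls of all stages. The stage 41 controls alone lay between 203 and 444 CPM, so the sum in ERFE-MO2 stage 41 replicate 2 was above them. Of that sum 45.8% on average came from mpo.L, the myeloperoxidase gene, which read 164, 87.1, 161 and 283 CPM in them, against 72.7 to 277 CPM in the controls. The Ets factor gene spib.L of the same list read 35.5, 15.4, 35.8 and 23.1 CPM, against at most 18.4 CPM in the controls, so it was above them in 3 of the 4 libraries. Its homeolog spib.S, at 13.9 and 15.6 CPM in the matching pair, exceeded the control maximum of 10.8 CPM there. In each of the 4 libraries 2 or 3 of the 22 genes lay above all controls. Below all controls lay 1 gene in ERFE-MO2 stage 35/36 replicate 1, 2 in ERFE-MO2 stage 41 replicate 2 and 0 in the ERFE-MO1 libraries. The share of all genes outside the control range was not taken, so these counts have no background. Neither the part of junb.L nor that of myeloid cells in the collagenase values was tested.

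**Figure D3:**
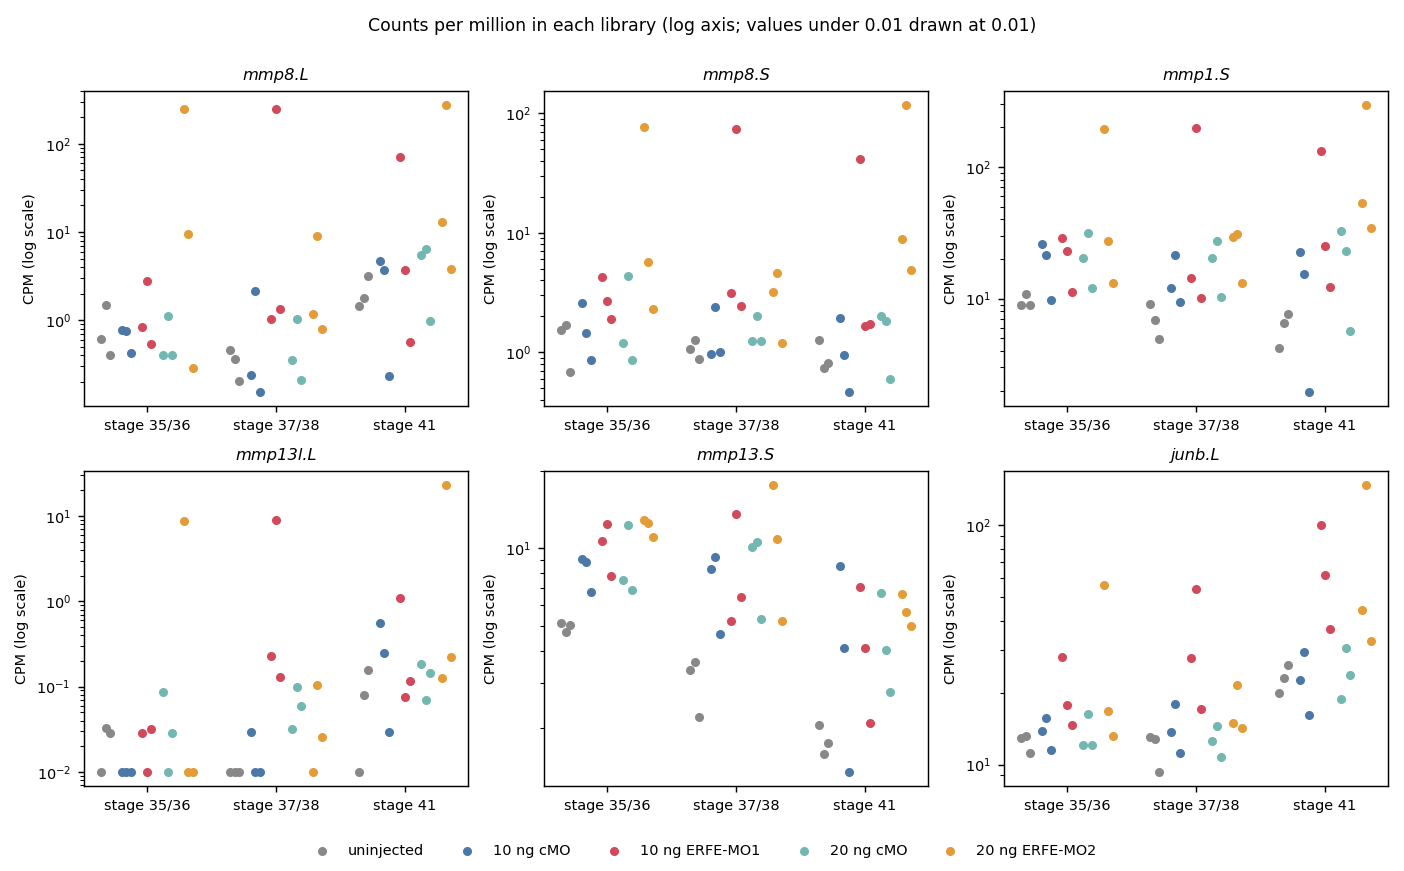
CPM on a log axis in each of the 45 libraries for 5 collagenase genes and junb.L, by stage and coloured by condition. In mmp8.L, mmp8.S, mmp1.S and mmp13l.L a single library stands far above its group in ERFE-MO2 at stage 35/36, ERFE-MO1 at stage 37/38, and both at stage 41 (mmp8.L 70.0 to 275 CPM), whereas mmp13.S shows no such library.

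Since only 1 library of a group carried the highest of these values, the groups mostly overlapped and the fitted differences had wide errors. mmp8.L differed by 6.51 ± 1.94 on the log2 scale with ERFE-MO1 at stage 37/38 (adjusted p = 0.15), and by 0.38 (adjusted p = 0.999) without replicate 2. With ERFE-MO2 at stage 35/36 the difference was 7.13 ± 2.04 (adjusted p = 0.43), and 2.92 (adjusted p = 1) without replicate 1. At stage 41 it was 3.12 ± 1.63 with ERFE-MO1 and 4.51 ± 1.69 with ERFE-MO2 (adjusted p = 0.46 and 0.33). With ERFE-MO2 at stage 41 the values of mmp8.S did not overlap with the controls (8.91, 117 and 4.84 CPM against 2.0, 1.81 and 0.600 CPM), nor did those of mmp1.S (53.6, 296 and 34.5 CPM against 32.6, 23.0 and 5.72 CPM). Their differences, 4.89 ± 1.32 and 2.65 ± 0.98, were not called (adjusted p = 0.095 and 0.32), but with the replicate block they were 4.74 and 2.69 (adjusted p = 0.0080 and 0.027). In both genes ERFE-MO2 replicate 2 was far the highest, and the block was not fitted without that library.

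Averaging the ERFE-MO1 and ERFE-MO2 responses at stage 41 gave 7 members called of 77, 6 higher and 1 lower, beside 4.04% of all genes tested (2.16% higher and 1.88% lower). The median log2 change of the members was -0.06, against -0.01 over all genes. The higher members were mmp14.L (0.46 ± 0.08), adamts1.S (0.57 ± 0.11), adamts1.L (0.55 ± 0.12), mmp8.S (4.30 ± 0.92), mmp1.S (2.37 ± 0.69) and adamts4.L (0.98 ± 0.25). The lower member was adamtsl3.L (-0.44 ± 0.11). The calls of both collagenases depended on single libraries. Without ERFE-MO1 replicate 1, mmp8.S stood at 2.70 (adjusted p = 0.070) and mmp1.S at 1.53 (adjusted p = 0.19), and without ERFE-MO2 replicate 2 mmp1.S stood at 1.60 (adjusted p = 0.26). The call of mmp1.S was also lost on leaving out replicate 2 or 3 of either cMO group (2.11 to 2.42, adjusted p 0.072 to 0.13).

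adamts4.L, like adamts1 a gene for an aggrecan-cleaving protease, read 7.56, 11.8 and 10.9 CPM in 10 ng cMO embryos and 21.7, 16.2 and 17.7 CPM with ERFE-MO1 at stage 41. In 20 ng cMO embryos it read 7.27, 9.24 and 11.4 CPM, and with ERFE-MO2 12.8, 27.9 and 18.5 CPM. Every ERFE library of this stage lay above every control library of the series (at most 11.8 CPM), whereas at stages 35/36 and 37/38 the groups overlapped. Its call in the averaged response was lost without ERFE-MO2 replicate 2 (0.81, adjusted p = 0.091) and without replicate 1 of either cMO group (0.90 and 0.91, adjusted p = 0.051 for each). The homeolog adamts4.S overlapped throughout, at 9.52, 11.8 and 10.7 CPM with ERFE-MO1 and 7.64, 13.9 and 13 CPM in its controls.

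adamtsl3.L encodes a secreted ADAMTS-like glycoprotein without a protease domain. At stage 41 it read 8.86, 7.26 and 12.0 CPM in 10 ng cMO embryos and 6.92, 6.32 and 6.47 CPM with ERFE-MO1, and 10.2, 8.89 and 10.6 CPM in 20 ng cMO embryos and 8.60, 6.20 and 8.44 CPM with ERFE-MO2. In each pair of groups all ERFE values were below all control values. Its call was lost without 10 ng cMO replicate 3 (-0.33, adjusted p = 0.10) and without ERFE-MO2 replicate 2 (-0.37, adjusted p = 0.065). For ERFE-MO1 alone it was called without 10 ng cMO replicate 2 (-0.67, adjusted p = 0.024).

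With the replicate block the averaged response called 21 members, 15 higher and 6 lower, which included all 7 above, beside 19% of all genes. The further higher members were mmp11.L (0.62), mmp17.S (0.26), mmp19.L (0.47), mmp8.L (3.55), mmp13l.L (2.90), mmp13l.S (1.98), timp3.S (0.53), mmp25.L (0.53) and mmp25.S (0.38). The further lower members were adamts20.L (-0.77), mmp2.S (-0.23), adamts18.S (-0.77), adamts14.L (-0.41) and mmp23b.S (-0.37). The adjusted p of these further members ranged from 7.938e-05 for adamts20.L to 0.050 for adamts14.L. adamts20.L, whose product cleaves versican in mouse, had a difference of -0.74 without the block and an adjusted p of 0.065.

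By role, the averaged response at stage 41 called 2 higher of 7 collagenases, 1 higher of 12 membrane-type MMPs, 3 higher of 11 proteoglycan-cleaving ADAMTS and 1 lower of 10 ADAMTS-like proteins. Over all genes it called 2.16% higher and 1.88% lower. The 3 ADAMTS include both copies of adamts1, which can share reads. None of the 3 gelatinases (log2 changes from -0.49 to 0.28), 5 stromelysins and matrilysins (-0.29 to 0.61), 7 other MMPs (-0.37 to 0.45), 3 TIMPs (0.01 to 0.52), 6 procollagen N-proteinases (-0.43 to 0.37) or 13 other ADAMTS (-0.77 to 0.04) was called. Among the inhibitors, timp2.L differed by 0.05 ± 0.08 and timp2.S by 0.01 ± 0.10 (adjusted p = 0.87 and 0.97), and timp3.S by 0.52 ± 0.20 (adjusted p = 0.15). A pair of timp-1 copies lies outside the symbol pattern because of the hyphen, and both had 0 counts in all 45 libraries.

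The control morpholino itself was followed by a difference in 1 member. mmp13.S, a collagenase-3 gene, read 5.10, 4.73 and 5.03 CPM in uninjected embryos at stage 35/36 and 7.51, 12.3 and 6.89 CPM with 20 ng cMO. At stage 37/38 it read 3.38, 3.62 and 2.20 CPM and 10.1, 10.6 and 5.29 CPM, and at stage 41 2.06, 1.59 and 1.74 CPM and 6.70, 4.01 and 2.77 CPM. All 20 ng cMO libraries lay above the uninjected libraries of their stage. Over the 3 stages the log2 difference was 1.22 ± 0.27 (adjusted p = 0.043), the call of 1 of 77 members beside 0.167% of all genes. It was lost on leaving out 17 of 19 libraries in turn (adjusted p up to 0.21). With 10 ng cMO the difference was 1.13 ± 0.27 (adjusted p = 0.24) and no member was called, beside 0.0346% of all genes. At that dose 3 members (3.9%) had an unadjusted p under 0.05, beside 2.52% of all genes, and DESeq2 called 1 member. With the replicate block mmp13.S was called at both doses (10 ng: 1.05, adjusted p = 0.0024; 20 ng: 1.17, adjusted p = 0.00023), and mmp15.S was added at 20 ng (-0.12, adjusted p = 0.048). With the ERFE morpholinos mmp13.S overlapped the matching cMO dose in all 6 comparisons, with log2 differences from -0.07 to 0.45.

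More members differed between stages than between treatments. In uninjected embryos 37 of 77 members (48.1%) differed between stages 41 and 35/36, 28 higher and 9 lower, beside 43.1% of all genes tested (21.4% higher and 21.7% lower). The share called was thus near that of all genes, while the members' median change was 0.35, against 0.01 over all genes. Within 10 ng and 20 ng cMO embryos the same stages gave 32 and 28 members. The share of all genes within those embryos is not given here, so these lower counts cannot be read as particular to the members. Between stages 41 and 37/38 the count was 27 (20 higher and 7 lower; 30.1% of all genes, 14.8% higher and 15.3% lower). Between stages 37/38 and 35/36 the count was 0, beside 0.0723% of all genes, and DESeq2 also called 0. An unadjusted p under 0.05 was reached by 11 members (14.3%), beside 9.3% of all genes. With the replicate block the count was 5, all higher (adamts2.S, adamts9.S, adamtsl2.S, mmp24.L and mmp24.S), beside 5.44% of all genes. In these bulk samples fewer cells of a type and less RNA per cell cannot be told apart.

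Of the proteoglycan-cleaving ADAMTS, 9 of 11 copies were higher at stage 41 than at stage 35/36 and none was lower. Over all genes 21.4% were higher and 21.7% lower. The call of adamts5.L was lost without replicate 1 of stage 35/36 or replicate 2 or 3 of stage 41 (0.41 to 0.60, adjusted p 0.076 to 0.19) and within either cMO dose (0.54 and 0.42, adjusted p = 0.067 and 0.15). The stage 35/36 libraries of adamts4.S read 1.66, 4.89 and 2.57 CPM, those of stage 37/38 were at 5.12, 5.97 and 4.54 CPM, and those of stage 41 reached 10.0, 14.7 and 13.1 CPM. Its change of 2.04 ± 0.43 on the log2 scale (adjusted p = 0.00024) was close to the 1.86 ± 0.38 of adamts4.L. adamts15.L rose from 2.76, 1.97 and 2.57 CPM to 7.78, 9.71 and 9.13 CPM (1.87 ± 0.28, adjusted p = 3.626e-06), adamts20.L by 1.93 ± 0.35 and adamts1.L and adamts1.S by 0.83 and 0.85. The stage 41 values of adamts4.S and adamts15.L lay above all their earlier values, and in both the larger step came after stage 37/38.

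Outside that role, the ADAMTS-like gene adamtsl2, whose product binds fibrillin microfibrils, had the largest change among the members called. Its copy adamtsl2.S read 1.29, 1.35 and 0.229 CPM in the earliest embryos, 2.88, 3.29 and 4.10 CPM in the next and 8.23, 9.15 and 11.4 CPM in the oldest, with no overlap. It rose by 3.35 ± 0.60 from first to last (adjusted p = 3.533e-05), and adamtsl2.L rose by 2.03 ± 0.32. adamts13.L, the gene of the protease that trims von Willebrand factor in mammals, rose by 1.55 ± 0.43, and adamts10.S, whose product associates with fibrillin, by 1.39 ± 0.21. Of the other ADAMTS 4 of 13 rose and 1 fell, and of the ADAMTS-like proteins 4 of 10 rose and 1 fell (adamtsl1.L, -0.71 ± 0.15). Over all genes 21.4% rose and 21.7% fell.

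All 3 inhibitor genes tested were higher at stage 41 than at stage 35/36, beside 21.4% of all genes. timp2.L read 15.9, 13 and 14.3 CPM in the earliest embryos and 24.5, 27.9 and 25.0 CPM at stage 41 (0.84 ± 0.12, adjusted p = 1.874e-06), and timp2.S rose by 0.86 ± 0.15. timp3.S, which encodes a matrix-bound inhibitor that also acts on ADAMTS enzymes, read 1.25, 2.10 and 1.29 CPM and then 2.09, 2.75 and 2.68 CPM. The stages overlapped slightly, its change of 0.70 ± 0.29 just passed the threshold (adjusted p = 0.048). It did not pass within either cMO dose (0.59 and 0.54, adjusted p = 0.10 and 0.14) or without the stage 35/36 library that matches another label (0.69, adjusted p = 0.053). Nor did it on leaving out uninjected replicate 1 or 3 of stage 35/36 or replicate 2 or 3 of stage 41 (adjusted p 0.12 to 0.17).

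Of the membrane-type MMPs 6 of 12 rose and none fell, while over all genes 21.4% rose and 21.7% fell. Those that rose were mmp14.L (0.68 ± 0.11), mmp14.S (0.87 ± 0.15), mmp24.S (0.73 ± 0.12), mmp16.L (0.50 ± 0.20), mmp24.L (0.47 ± 0.14) and mmp15.S (0.31 ± 0.10). The call of mmp15.S was lost without replicate 1 of stage 35/36 or replicate 2 of stage 41 (0.23 and 0.27, adjusted p = 0.055 and 0.051) and within either cMO dose (0.23 and 0.19, adjusted p = 0.052 and 0.12). That of mmp16.L was lost without replicate 2 or 3 of stage 35/36 or replicate 1 of stage 41 (0.27 to 0.52, adjusted p 0.068 to 0.30) and within either cMO dose (0.32 and 0.24, adjusted p = 0.19 and 0.34). In stage order, mmp14.L read 202, 203 and 241 CPM, 231, 246 and 263 CPM, and 352, 369 and 318 CPM. Its stage 41 values were above all earlier ones, and the ERFE-MO1 values of that stage, given above, were higher again. The gelatinase gene mmp2.S, whose product MT1-MMP activates, was not called (28.5, 31.4 and 31.7 CPM against 47.0, 33.3 and 42.7 CPM; 0.42, adjusted p = 0.085), but was with the replicate block (0.41, adjusted p = 0.0013).

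Of the 9 members that fell, 6 were secreted MMPs. The MMP roles other than the membrane type held 7 collagenases, 3 gelatinases, 5 stromelysins and matrilysins and 7 other MMPs tested. Over all genes 21.7% fell, and no trait of secreted MMPs is read from this count. Stromelysin-3, mmp11, fell in both copies. In the 3 stages in turn, mmp11.L read 22.4, 25.0 and 25.4 CPM, 24.3, 17.5 and 19.6 CPM, and 11.2, 6.30 and 6.36 CPM. Its change was -1.62 ± 0.31 (adjusted p = 8.944e-05), and mmp11.S changed by -0.62 ± 0.22 (adjusted p = 0.024), a call lost without replicate 2 or 3 of either stage (adjusted p 0.067 to 0.078) and within 20 ng cMO embryos (-0.54, adjusted p = 0.054). At stage 41 mmp11.L was at 26.7, 7.04 and 11.6 CPM with ERFE-MO1, so 1 of these libraries was at the level of the first stage. Replicate 1 was also the highest with 10 ng cMO (542, 200 and 238 raw counts, against 1026, 186 and 395 with ERFE-MO1). The difference of 0.75 was not called (adjusted p = 0.27), but was with the replicate block (0.69, adjusted p = 0.0043). mmp13.S fell by 1.47 on the log2 scale, from 5.10, 4.73 and 5.03 CPM to 2.06, 1.59 and 1.74 CPM. The call of mmp13.S was lost without stage 41 replicate 2 (-1.38, adjusted p = 0.056) and was not reached within cMO embryos (-0.82 and -0.98, adjusted p = 0.15 and 0.086).

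mmp3.L fell from 52.9, 71.5 and 28.5 CPM to 31.1, 20.4 and 9.41 CPM with overlapping stages (-1.33 ± 0.48, adjusted p = 0.026). The call was lost on leaving out replicate 1 or 2 of stage 35/36 or replicate 2 or 3 of stage 41 (-0.99 to -1.33, adjusted p 0.057 to 0.15) and was not reached within either cMO dose (-0.93 and -0.96, adjusted p = 0.12 and 0.11). mmp21.L, a gene needed for left-right asymmetry in human and mouse, was near its threshold (-1.15 ± 0.48, adjusted p = 0.049) and lost its call without any 1 uninjected library of these stages (adjusted p 0.080 to 0.13) except replicate 2 of stage 35/36. Within 10 and 20 ng cMO embryos mmp21.L was not called (-1.10 and -0.93, adjusted p = 0.062 and 0.12). Of the procollagen N-proteinases, which remove the amino-terminal propeptide of fibrillar collagens, adamts3.L fell (-0.98 ± 0.31; -0.74 with an adjusted p of 0.086 without stage 41 replicate 2) and adamts2.S rose (0.76 ± 0.15). adamts16.L (-0.90 ± 0.22; -0.41 with an adjusted p of 0.13 within 20 ng cMO embryos) and the epilysin gene mmp28.L (-0.41 ± 0.08) fell as well.

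The members with the highest levels of their roles included several that were not called. The gelatinase gene mmp9.S read 58.0, 57.1 and 44.3 CPM in uninjected embryos of stage 35/36 and 108, 63.3 and 39.3 CPM in those of stage 41, with overlap (0.40 ± 0.40, adjusted p = 0.44). Over the series its ERFE libraries (30.8 to 112 CPM) overlapped the controls (34.4 to 130 CPM), and none lay above them. With the sequencing lane as a term its stage difference was 0.70 (adjusted p = 0.019). adamtsl4.S (0.06 ± 0.21), adamtsl5.L (-0.05 ± 0.10), adamts12.L (0.02 ± 0.13) and mmp19-like.2.L (-0.11 ± 0.22) were not called between these stages or in the averaged ERFE response. adamts10.L read 19.4, 23.0 and 20.8 CPM and then 31.3, 25.1 and 29.2 CPM, without overlap (0.44 ± 0.16, adjusted p = 0.026). Its call was lost without replicate 1 or 3 of either stage (0.37 to 0.43, adjusted p 0.065 to 0.097).

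**Figure D4:**
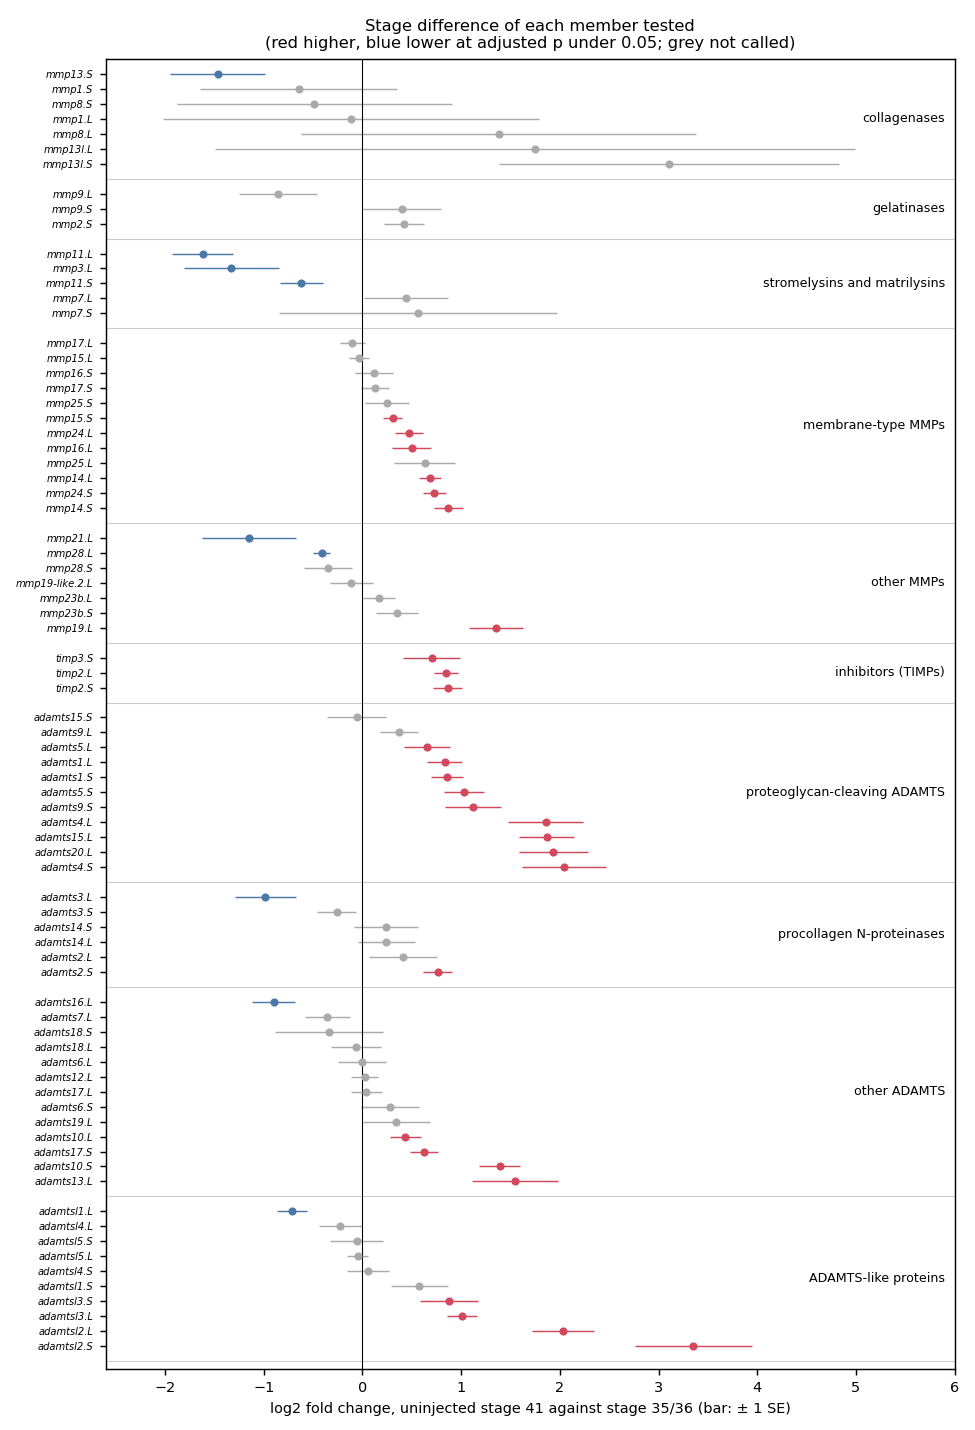
Log2 fold change with its standard error of each of the 77 members tested between stages 41 and 35/36 in uninjected embryos, grouped by role, red for the 28 called higher, blue for the 9 called lower and grey for the rest. The proteoglycan-cleaving ADAMTS hold 9 red points of 11 and the stromelysins and matrilysins 3 blue points of 5, and adamtsl2.S lies farthest to the right among the called genes, at 3.35.

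The homeologs of a gene can share reads where their sequences are alike, and the sources used here do not say how the counting treated such reads. Of the 32 pairs with both copies tested, both copies were called higher between these stages in 9, both lower in 1 (mmp11) and neither in 13. Only the L copy was called in 5, only the S copy in 4, and no pair was called in opposite directions. The fitted changes had the same sign in 24 pairs. adamts15 had the widest gap among pairs with a call: adamts15.S went from 6.66, 3.05 and 3.55 CPM to 3.96, 4.07 and 4.64 CPM at stage 41 (-0.06), while adamts15.L rose as described. In adamtsl1 the L copy fell by 0.71 on the log2 scale and the S copy, which was not called, had a value of 0.58. Whether the copies of a pair differed was not tested.

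**Figure D5:**
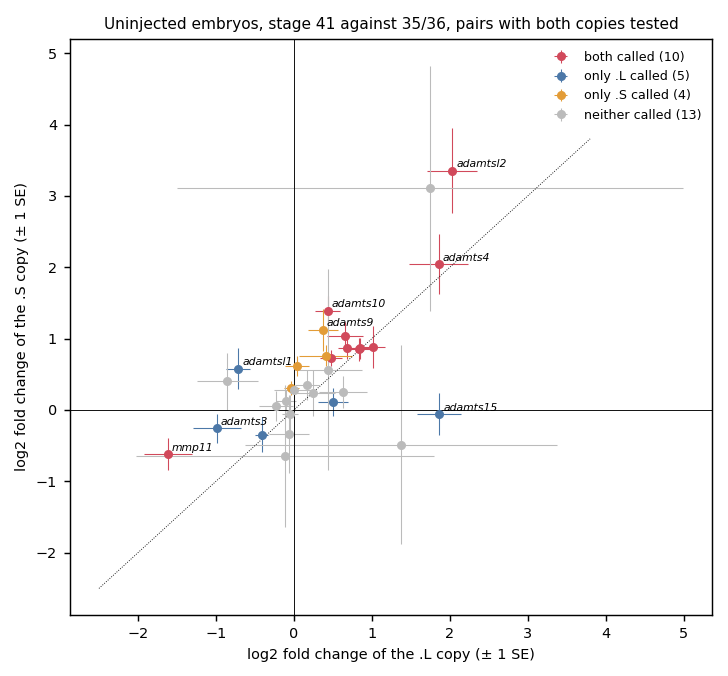
Log2 fold change of the .S copy against that of the .L copy, each with its standard error, for the 32 homeolog pairs tested between stages 41 and 35/36 in uninjected embryos; the dotted line marks equal change. In the 10 pairs with both copies called the copies changed the same way, with adamtsl2 and adamts4 at the upper right and mmp11 at the lower left, and adamts15 lies far to the right of the line.

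Genes that act with the members were read from lists of activators, substrates, regulators and cell type markers. In the averaged stage 41 response, 10 of 16 AP-1 and Ets factors were called higher and 1 lower, with fosl2.L at 1.13 ± 0.17, junb.L at 1.59 ± 0.32 and fos.S at 1.53 ± 0.32 (adjusted p = 0.00012, 0.0025 and 0.0041). These 3 are AP-1 genes. With ERFE-MO1 alone at stage 41, 2 were called higher and 2 lower, beside 1.51% of all genes. The lower were the Ets copies ets1.L (-0.75) and ets1.S (-0.46; adjusted p = 0.022 and 0.045). The Ets copy ets2.S was higher with ERFE-MO1 at stage 37/38 (0.91, adjusted p = 0.0035). In the averaged response the list's median change was 0.79, against -0.01 over all genes. Over all genes that response called 2.16% higher and 1.88% lower, to be set beside the counts of each list. Of 23 activators, receptors and other protease inhibitors 3 were higher and 2 lower, the higher including the tissue plasminogen activator plat.L (1.13 ± 0.18) and the MMP inducer bsg.L (0.25 ± 0.06). Among the lower was the plasmin inhibitor serpinf2.L (-0.78 ± 0.16). Of 37 matrix substrates 2 were lower, fbn1.L (-1.24 ± 0.21), a fibrillin gene, and acan.S (-0.59 ± 0.17), the aggrecan core protein cut by ADAMTS1 and ADAMTS4.

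Among cell type markers, 5 of 22 endothelial genes were lower, beside 1.88% of all genes, among them tie1.S (-0.62 ± 0.11) and tek.S (-0.71 ± 0.13), and of 22 myeloid markers 1 was lower (lcp1.S, -0.74 ± 0.21). Of 14 cartilage and notochord genes 1 was higher and 1 lower, and none of 8 epidermal and 7 red cell genes was called. The lower cartilage gene was acan.S, already counted among the substrates, since both lists name acan and col2a1. The median log2 change was -0.26 over the endothelial, -0.18 over the myeloid and -0.76 over the red cell genes. The part of these cells, like that of the stage score, in the members' values was not tested. Between stages 41 and 35/36 of uninjected embryos, 19 of the 37 substrates were higher and 5 lower, beside 21.4% and 21.7% of all genes. Both aggrecan copies were among the higher, acan.S by 5.43 ± 0.32 and acan.L by 6.06 ± 0.62 on the log2 scale, as were the basement membrane collagens col4a1.L and col4a2.L, by 2.37 ± 0.24 and 2.05 ± 0.20. Of the 14 cartilage and notochord genes 13 were higher at stage 41 and none lower, beside 21.4% and 21.7% of all genes. These 13 include both aggrecan copies, counted among the substrates as well. The part of the cartilage and notochord genes in the ADAMTS values was not tested.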

How the data were processed

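Whole-embryo RNA was sequenced from 45 libraries, 3 for each of 5 conditions at 3 stages; the groups come from the labels. Libraries were made with the TruSeq RNA kit v2, per the labels' protocols, a kit that does not mark strand. The authors deposited raw counts per gene for each library. Per the submitters' processing notes, bcl2fastq 2.17.1.14, FastQC 0.11.5, STAR 2.5.2a, featureCounts 1.5.0-p1 and DESeq2 1.8.2 were used. The genome build, the annotation and the treatment of reads shared by homeologs were not stated in the sources that were used. Library depth limits precision as stated with the results, and read counts without molecular identifiers are not independent molecules.

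The members, the lists and the roles were chosen with earlier results of these data known, and some lists follow an earlier analysis of these files. Gene symbols are those of the files; 64 members matched a RefSeq symbol and 1 a synonym only (mmp9.L, which names a pair of genes there) in the table of assembly Xenopus_laevis_v10.1, and 14 matched none. Members were named by a rule: those called in a comparison of morpholinos, filled up to 12 by the smallest unadjusted p against cMO; up to 8 in each direction with the largest change among those called between stages 41 and 35/36 with at least 1 CPM; the 2 of each role with the highest mean; all TIMPs; and up to 4 called genes of each other list. Further members, such as those the replicate block called and the homeolog of a named copy, were chosen after their values were seen. Counts were fitted with edgeR 4.0.16 (R 4.3.3, limma 3.58.1): filterByExpr by group with a count minimum of 10, TMM scaling, 1 term for each of the 15 groups, 30 residual degrees of freedom, the quasi-likelihood F test and Benjamini-Hochberg adjustment over 31817 genes, called at an adjusted p under 0.05. SE is the log2 fold change divided by the square root of F. The fit was tested on simulated counts.

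Same-numbered libraries shared their deviations from the group means: in 14 of the 17 comparisons every pair correlated over 0.1, with the exceptions of ERFE-MO2 at stage 35/36 (2 of 3 pairs, lowest 0.078) and the differences between morpholinos at stage 35/36 (16 of 18 pairs) and between stages for ERFE-MO2 (14 of 18 pairs). The numbers come from the labels, which do not say what they share. Alternatives were DESeq2 1.42.0, RLE scaling, no filter, the sequencing lane as a term, uninjected embryos as control, the compared groups alone, the replicate block, the block without the ERFE-MO2 library that matches another, cMO embryos for the stage comparison, and each library left out; a block common to all stages, and the block without the matching ERFE-MO1 library of stage 37/38, were added after seeing the data.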

Additional observations from a re-analysis of the deposited data

How the results depend on the processing

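Counts of members called moved by over 1.5 times as follows, in the order ERFE-MO1 at stages 35/36, 37/38 and 41 (1, 2 and 3 called), ERFE-MO2 at the same stages (0, 0 and 0) and their averaged stage 41 response (7). The replicate block gave 4, 7, 13, 1, 0, 8 and 21, and with the matching ERFE-MO2 library left out as well 4, 10, 17, 0, 1, 10 and 22. The lane term gave 2 for ERFE-MO1 at stage 35/36, 6 at stage 41, 1 for ERFE-MO2 at stage 41 and 13 for the averaged response. DESeq2 gave 2, 5 and 5 for ERFE-MO1 and 1, 0 and 1 for ERFE-MO2. The shares of all genes called by the lane term and by DESeq2 are not given here. With uninjected embryos as control the counts were 2 and 1 for ERFE-MO1 at stages 35/36 and 37/38 and 2 for ERFE-MO2 at stage 41. The compared groups alone, with fewer samples behind the spread, gave 0, 0 and 0 for ERFE-MO1 and 4 for the averaged response, and no filter gave 0 for ERFE-MO1 at stage 35/36. For 10 ng cMO against uninjected embryos the lane term, the block, the block without the matching library and DESeq2 each gave 1 in place of 0, and for 20 ng cMO the block gave 2 and, without that library, 4, in place of 1. Between stages 37/38 and 35/36 the lane term gave 2, the block 5, the block common to all stages 2 and the block without the matching library 9, in place of 0, and for the difference between morpholinos at stage 37/38 the last of these gave 1. Leaving out the matching ERFE-MO1 library in place of the ERFE-MO2 one, a choice made after seeing the data, the block gave 3 for ERFE-MO1 at stage 37/38 and 1 for that difference, adamts1.S in both cases (0.68 and 0.73, adjusted p = 0.026 and 0.047). At stage 35/36 with ERFE-MO2 the numbers do not pair all libraries, so the 1 member called there under the block (mmp14.L, 0.39, adjusted p = 0.042) is not counted among the results. Leaving out 1 library at a time gave 0 to 2, 0 to 3 and 2 to 4 members for ERFE-MO1, 0 to 0 for ERFE-MO2 at each stage and for the differences between responses, 4 to 9 for the averaged response, 0 to 1 for either cMO dose, 16 to 29 between stages 41 and 37/38 and 30 to 36 between stages 41 and 35/36. The block kept every call made without it, and no called member changed direction under any of these settings. The cause of these differences was not tested beyond the construction named. Depth limits members with few counts: mmp13l.L was at 0 in 15 libraries and mmp20.L in 30.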
